A study of Mus musculus with 8 samples.

Results

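The transcripts of 5 cadherins (*Cdh1*, *Cdh2*, *Cdh3*, *Cdh6* and *Cdh11*), 4 catenins (*Ctnna1*, *Ctnnb1*, *Ctnnd1* and *Jup*) and the epithelial adhesion molecule *Epcam* were followed in the mouse pancreas bud at E11.0. These 10 genes were picked by symbol from the 24341 genes of the deposited FPKM table, and FPKM are fragments scaled to transcript length and to library size. The table holds 8 individual buds at about 40 somites, all labelled as CD1 strain, 5 of them WT and 3 *Lats1/2PanKO*. The second group carries *Pdx1Creearly* with floxed alleles of both *Lats1* and *Lats2* (*Lats1f/f* and *Lats2f/f*), so recombination is driven by the *Pdx1* promoter, which is active in the pancreatic progenitor epithelium and not in the mesenchyme around it. The WT buds are labelled WT with no alleles given, and the methods of the study name WT or heterozygous littermates as controls in general. Forceps were used to strip mesenchyme, after which RNA was made from the whole remaining bud, and each library is 1 bud.

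Classical cadherins are calcium-dependent adhesion receptors that bind their like on the neighbouring cell and hold cells together at adherens junctions. Their cytoplasmic tails carry β-catenin or plakoglobin, which tie them to α-catenin and actin, while the catenin encoded by *Ctnnd1* binds nearer the membrane and keeps the cadherin at the cell surface. E-cadherin (*Cdh1*) is the main cadherin of epithelia, and mesenchymal cells commonly carry N-cadherin (*Cdh2*) and cadherin-11 (*Cdh11*). LATS1 and LATS2 are the Hippo pathway kinases that phosphorylate the transcriptional coactivators YAP and TAZ, and the study asked what their loss does to pancreatic progenitors, epithelial to mesenchymal transition included. For this comparison *Cdh1*, *Cdh3* and *Epcam* were taken as epithelial and *Cdh2* and *Cdh11* as mesenchymal, and *Cdh6* was left in neither class.

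The buds were mixed tissue. The summed FPKM of 15 epithelial markers lay between 211 and 268 in WT buds, and was 471, 420 and 973 in *Lats1/2PanKO* buds 1 to 3. The summed FPKM of 20 mesenchymal markers lay between 1228 and 1359 in WT buds and was 1059, 1230 and 952 in *Lats1/2PanKO* buds 1 to 3, so mesenchymal transcripts were abundant in every bud although mesenchyme had been stripped. *Lats1/2PanKO* bud 3 had the highest epithelial and the lowest mesenchymal sum of the 8. The sums of the other lists (WT range, then *Lats1/2PanKO* range) were 701 to 916 and 927 to 2319 for pancreatic epithelium, 12.04 to 22.9 and 23.8 to 53.6 for mesothelium (with *Krt19*, also an epithelial marker), 212 to 357 and 143 to 234 for endothelium, and 2657 to 15831 and 8025 to 10239 for red blood cells. They were 13.9 to 26.8 and 19.7 to 27.3 for leukocytes, 132 to 195 and 146 to 174 for nerve and neural crest, 169 to 272 and 246 to 684 for liver, and 1.49 to 2.36 and 1.80 to 4.56 for stomach and duodenum epithelium, where *Gkn2*, *Tff2* and *Fabp1* were listed at 0 in every bud. *Gcg* alone was 622 to 806 FPKM in WT buds and 800 to 2019 in *Lats1/2PanKO* buds, most of the pancreatic epithelium sum. Of the tested mesothelial markers only *Krt19* was higher, at 2.13 to 4.05 and 13.4 to 47.0 FPKM, and 4 were lower. Of the 19 tested mesenchymal markers 17 were lower and 2 higher. *Vim*, a large part of that sum, was among the higher, at 361 to 481 FPKM in WT buds and 493, 464 and 602 in *Lats1/2PanKO* buds 1 to 3. By immunostaining, the study saw VIM protein in *Lats1/2PanKO* epithelium at E11.5 and none in WT epithelium. Which cells the *Vim* transcript came from was not tested. *Gcg*, *Krt19* and *Vim* are named here after their values were seen. In bulk tissue, fewer cells of a type and less RNA per cell cannot be told apart, and the part of the marker lists in the values of the 10 genes was not tested. Over 1000 bases of transcript, a single fragment stood for 0.0992 to 0.106 FPKM in 7 buds and 0.133 in WT bud 5, the shallowest library, so that the lowest value of any of the 10 genes, 10.3 FPKM of *Cdh6* in WT bud 5, stood on about 77.2 fragments per 1000 bases if the FPKM were not rescaled. *Lats1* was between 14.1 and 16.6 FPKM in WT buds and 12.3, 13.8 and 10.1 in *Lats1/2PanKO* buds 1 to 3, without overlap, and *Lats2* was between 11.6 and 14.7 against 13.4, 12.3 and 11.1, with overlap. These values cover the whole gene, deleted or not, and exons were not analysed singly.

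The genotypes were compared with limma on log2(FPKM + 1) over the 13777 genes that averaged 0.5 FPKM or more, as all 10 genes did. None of the 10 passed an adjusted p of 0.05, and over all genes 2, or 0.0145%, did. At an unadjusted p under 0.05, *Cdh1*, *Epcam* and *Cdh6* were higher and *Cdh2* and *Cdh11* lower in *Lats1/2PanKO* buds, which is 3 of 10 against a background of 6.29% of all genes higher and 2 of 10 against 4.99% lower. *Cdh1* and *Epcam* were above, and *Cdh2* below, every WT bud in all 3 *Lats1/2PanKO* buds, where 4.46% and 3.06% of all genes did so. The median log2 fold change was 0.10 over the 10 genes and -0.01 over all tested genes. Each gene was also put to an exact two-sided permutation test over the 56 ways to split the buds, where 0.0179 is the smallest p possible.

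**Figure D1:**
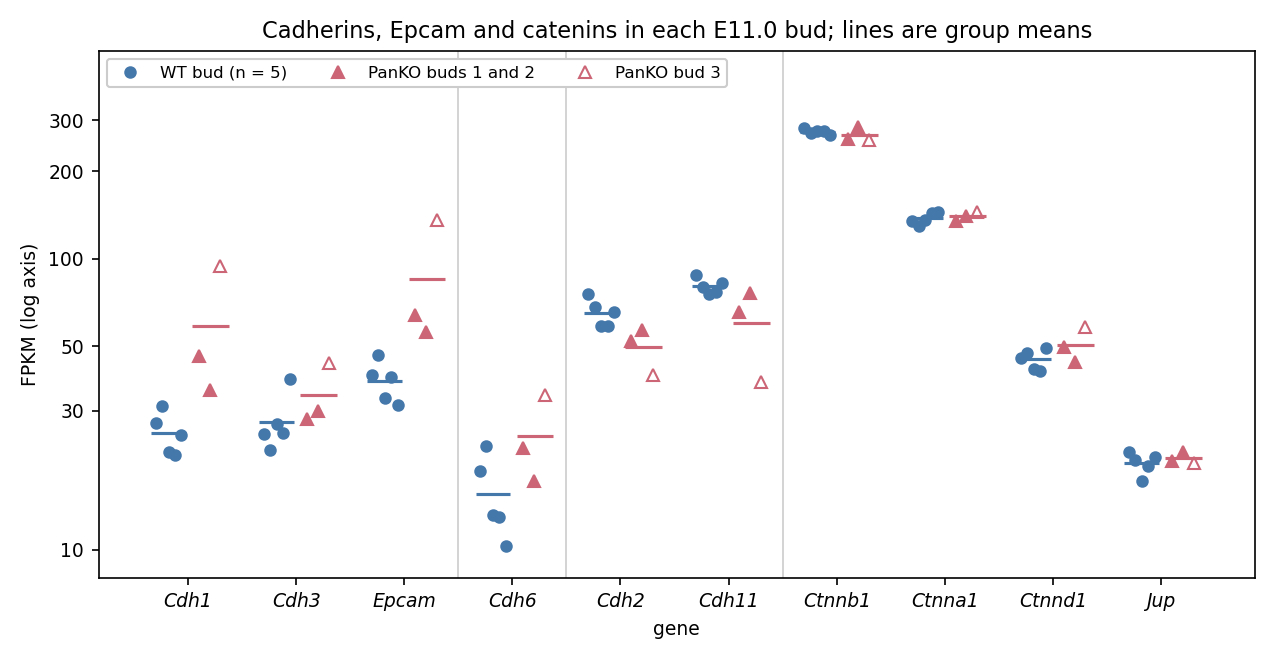
FPKM (log axis) of the 10 genes in each bud, with WT buds as circles, *Lats1/2PanKO* buds 1 and 2 as filled triangles, *Lats1/2PanKO* bud 3 as an open triangle, and group means as lines. *Cdh1* and *Epcam* of all 3 *Lats1/2PanKO* buds lie above the WT buds, and the 4 catenins on the right overlap between genotypes.

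In WT buds β-catenin and α-catenin led. *Ctnnb1* had a mean of 274 FPKM, *Ctnna1* 138 and *Cdh11* 80.7, and the ranges of these 3 genes did not overlap. *Cdh11* stood above *Cdh2* (65.4 FPKM) in 5 of 5 buds although their ranges touched, and *Cdh2* lay clear of *Ctnnd1* (45.1 FPKM). Below it *Epcam* (38.1 FPKM), *Cdh3* (27.6), *Cdh1* (25.2), *Jup* (19.9) and *Cdh6* (15.5) followed in ranges that overlapped from one neighbour to the next. In WT buds, then, the mesenchymal cadherins were the most abundant cadherin transcripts per length, above E-cadherin in every bud. In *Lats1/2PanKO* buds the order by mean after *Ctnnb1* and *Ctnna1* was *Epcam* at 85.5 FPKM, *Cdh11* at 60.1, *Cdh1* at 58.8, *Ctnnd1* at 50.7, *Cdh2* at 49.7, *Cdh3* at 33.96, *Cdh6* at 24.5 and *Jup* at 20.6, and each of these neighbours overlapped.

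*Cdh1* lies on chromosome 8 of GRCm38 from 106603368 to 106670246. It was 27.2, 31.2, 21.7, 21.1 and 24.8 FPKM in WT buds 1 to 5 and 46.2, 35.4 and 94.9 FPKM in *Lats1/2PanKO* buds 1 to 3. Every *Lats1/2PanKO* bud was above every WT bud, and bud 3 was far above the other two. The means were 25.2 ± 4.13 FPKM (SD, n = 5) and 58.8 ± 31.7 FPKM (SD, n = 3), a ratio of 2.33, which became 1.62 without *Lats1/2PanKO* bud 3. The log2 fold change was 1.08 (SE 0.27, 95% interval 0.46 to 1.70), with an adjusted p of 0.212 in limma and an exact permutation p of 0.0179. Leaving out each bud in turn gave log2 fold changes of 0.68 to 1.37.

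*Epcam* encodes a membrane glycoprotein of epithelial cells that is structurally unrelated to the cadherins and stabilises claudins. It lies on chromosome 17 from 87635979 to 87651127 and was 39.8, 46.9, 33.2, 39.4 and 31.4 FPKM in WT buds 1 to 5 and 64.1, 55.97 and 137 FPKM in *Lats1/2PanKO* buds 1 to 3. The groups did not overlap here either, and the same bud stood highest. The means were 38.1 ± 6.11 and 85.5 ± 44.4 FPKM, a ratio of 2.24, or 1.57 without *Lats1/2PanKO* bud 3. Its log2 fold change was 1.04 (SE 0.26, 95% interval 0.45 to 1.64), with an adjusted p of 0.208 in limma and an exact permutation p of 0.0179.

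*Cdh1* and *Epcam* kept close to a common ratio. *Cdh1* over *Epcam* was between 0.537 and 0.788 in WT buds and was 0.722, 0.633 and 0.695 in *Lats1/2PanKO* buds 1 to 3, inside the WT range although both genes differed between the groups. *Cdh1* and *Epcam* were also set against the epithelial marker sum. Its 15 genes were all higher in *Lats1/2PanKO* buds but not alike, with log2 fold changes of 0.31 to 2.37 and a median of 1.09. As a percentage of that sum, *Cdh1* was 8.44 to 12.1 in WT buds and 9.83, 8.43 and 9.75 in *Lats1/2PanKO* buds 1 to 3, so the groups overlapped. *Epcam* was 11.8 to 18.2% of the sum in WT buds and 13.6, 13.3 and 14.0% in *Lats1/2PanKO* buds, within the WT range. *Krt8* and *Krt18* held 44.0 to 55.9% of the sum over the 8 buds, and both genes still overlapped between genotypes with these keratins left out. *Cdh1* was then 16.8 to 22.2% in WT and 19.0, 16.5 and 19.3% in *Lats1/2PanKO* buds 1 to 3. *Epcam* was 26.6 to 33.3% in WT and 26.4, 26.1 and 27.8% in *Lats1/2PanKO*, with buds 1 and 2 just below the WT range.

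*Cdh3*, which encodes P-cadherin, an epithelial cadherin of placenta and basal layers, lies near *Cdh1* on chromosome 8, from 106510852 to 106556911, with 46.5 kb and 1 other gene of the table between them. It was 24.9, 22.1, 27.0, 25.1 and 38.6 FPKM in WT buds 1 to 5 and 28.0, 29.9 and 43.9 FPKM in *Lats1/2PanKO* buds 1 to 3. The groups overlapped, since WT bud 5 was above *Lats1/2PanKO* buds 1 and 2. On the log2 scale the fold change was 0.29 (SE 0.19, 95% interval -0.14 to 0.72), with an adjusted p of 0.624 in limma and an exact permutation p of 0.268, and it was 0.10 without *Lats1/2PanKO* bud 3. The interval holds no difference as well as a level 1.65-fold higher on the log2(FPKM + 1) scale. *Cdh3* exceeded *Cdh1* in 3 of 5 WT buds and in none of the 3 *Lats1/2PanKO* buds, with *Cdh3* over *Cdh1* between 0.708 and 1.56 in WT and at 0.607, 0.845 and 0.463 in *Lats1/2PanKO*. As a percentage of the epithelial marker sum *Cdh3* was 8.59 to 14.4 in WT and 5.96, 7.12 and 4.51 in *Lats1/2PanKO*, without overlap, unlike *Cdh1* and *Epcam*, although this difference from them was not tested.

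RefSeq promoter windows of GRCm38.p6 were at hand for 5 of the 10 genes (*Epcam*, *Cdh6*, *Ctnnb1*, *Ctnnd1* and *Jup*), and were not found for *Cdh1*, *Cdh2*, *Cdh3*, *Cdh11* and *Ctnna1*. The 250 bases before the start are shown for *Epcam*, an epithelial gene whose groups did not overlap, for *Cdh6*, the cadherin in neither class, and for the first of the starts of *Ctnnb1*, the most abundant of the 10. Capitals mark CAGGTG or its reverse complement CACCTG, the E-box bound by the Snail and Zeb repressors.
*Epcam* (chr17:87635729-87635978, plus strand): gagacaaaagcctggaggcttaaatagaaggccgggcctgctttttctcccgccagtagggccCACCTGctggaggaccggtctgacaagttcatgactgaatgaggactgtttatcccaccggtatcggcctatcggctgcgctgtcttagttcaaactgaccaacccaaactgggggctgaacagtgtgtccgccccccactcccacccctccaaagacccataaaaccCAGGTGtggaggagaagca
*Cdh6* (chr15:13173676-13173925, minus strand): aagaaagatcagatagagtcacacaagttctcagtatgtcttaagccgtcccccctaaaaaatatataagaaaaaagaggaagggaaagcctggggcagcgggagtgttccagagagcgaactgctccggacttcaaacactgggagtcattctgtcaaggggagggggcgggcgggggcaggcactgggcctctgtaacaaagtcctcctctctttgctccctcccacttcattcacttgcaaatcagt
*Ctnnb1* (chr9:120933150-120933399, plus strand): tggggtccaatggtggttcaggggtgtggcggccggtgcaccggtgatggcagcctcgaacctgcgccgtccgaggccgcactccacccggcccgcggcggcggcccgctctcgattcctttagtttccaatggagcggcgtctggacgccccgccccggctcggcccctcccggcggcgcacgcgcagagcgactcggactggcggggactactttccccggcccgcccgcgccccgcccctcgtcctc
The *Epcam* window holds the E-box at 187 and at 19 bases before the start, counted to the first base of the match on the strand shown, and the other 6 windows of these genes hold none. Over all 32851 mouse promoter windows of this length, 17.2% hold at least 1 such match on either strand and 2.06% hold at least 2. GGAATG (reverse complement CATTCC), the core motif of the TEAD factors that YAP and TAZ bind, is in none of the 7 windows of these genes and in 12.6% of all windows. Neither motif contains the other. The *Ctnnb1* window is the richest of those shown in G and C, at 74.8%, against 56.4% for *Epcam*, 51.2% for *Cdh6* and a median of 52.4% over all windows. A match is a run of letters, and no binding was measured.

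*Cdh2*, N-cadherin, lies on chromosome 18 from 16588877 to 16809049 and is a cadherin of neural and mesenchymal cells. It was 76.0, 68.1, 58.8, 58.6 and 65.6 FPKM in WT buds 1 to 5 and 52.2, 57.1 and 39.9 FPKM in *Lats1/2PanKO* buds 1 to 3. All 3 *Lats1/2PanKO* buds were below all WT buds, bud 2 by only a little. The means were 65.4 ± 7.21 and 49.7 ± 8.87 FPKM, a ratio of 0.760, and the log2 fold change was -0.40 (SE 0.13, 95% interval -0.68 to -0.11), with an adjusted p of 0.306 in limma and an exact permutation p of 0.0179. Without *Lats1/2PanKO* bud 3 the ratio was 0.836, the log2 fold change -0.25 and the unadjusted limma p 0.0506.

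*Cdh11*, the cadherin of mesenchyme and forming bone, lies on chromosome 8 from 102632995 to 102785111. It was 88.3, 80.2, 75.6, 77.0 and 82.4 FPKM in WT buds 1 to 5 and 65.9, 76.6 and 37.9 FPKM in *Lats1/2PanKO* buds 1 to 3. Bud 2 lay among the WT buds, bud 1 below them and bud 3 far below. The means were 80.7 ± 5.00 and 60.1 ± 20.0 FPKM, a ratio of 0.745, and the log2 fold change was -0.48 (SE 0.19, 95% interval -0.91 to -0.05), with an adjusted p of 0.398 in limma and an exact permutation p of 0.0357. Without *Lats1/2PanKO* bud 3 the ratio was 0.883, the log2 fold change -0.18 and the unadjusted limma p 0.0702.

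The mesenchymal marker sum was lowest in the same bud. *Vim*, which mesenchymal cells express strongly but not alone, held 27.9 to 39.2% of that sum in WT buds and 46.6, 37.8 and 63.2% in *Lats1/2PanKO* buds 1 to 3. As a percentage of that sum, *Cdh2* was 4.54 to 5.96 in WT buds and 4.93, 4.64 and 4.19 in *Lats1/2PanKO* buds 1 to 3, and *Cdh11* was 5.84 to 6.92 in WT and 6.23, 6.23 and 3.98 in *Lats1/2PanKO*. Both overlapped between genotypes, with bud 3 below the WT range for either gene. This position rested on *Vim*, for with *Vim* left out of the sum *Cdh2* was 6.29 to 9.45% in WT and 9.23, 7.46 and 11.4% in *Lats1/2PanKO*, which puts bud 3 above the WT range. *Cdh11* was then 8.09 to 10.98% in WT and 11.7, 10.001 and 10.8% in *Lats1/2PanKO*, with bud 3 within the WT range. The most abundant marker left in the sum was *Barx1*, at 173 to 500 FPKM in WT buds and 183, 302 and 115 in *Lats1/2PanKO* buds 1 to 3. WT bud 3, with the most *Barx1*, had the lowest of these percentages for both genes, and the part of *Barx1* in them was not tested. *Cdh11* over *Cdh2* was 1.16 to 1.31 in WT buds and 1.26, 1.34 and 0.948 in *Lats1/2PanKO* buds, so that bud 3 was the sole bud with more *Cdh2* than *Cdh11*.

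*Cdh6*, K-cadherin, a cadherin of kidney and neural tube, lies on chromosome 15 from 13034200 to 13173639. It was 18.6, 22.7, 13.2, 12.9 and 10.3 FPKM in WT buds 1 to 5 and 22.4, 17.2 and 34.02 FPKM in *Lats1/2PanKO* buds 1 to 3. WT buds 1 and 2 were above *Lats1/2PanKO* bud 2, so the groups overlapped, and the WT coefficient of variation, 32.2%, was the highest of the 10 genes. The means were 15.5 ± 5.00 and 24.5 ± 8.60 FPKM, a ratio of 1.58, or 1.27 without *Lats1/2PanKO* bud 3. The log2 fold change was 0.63 (SE 0.27, 95% interval 0.02 to 1.23), with an adjusted p of 0.427 in limma, an exact permutation p of 0.143, and an unadjusted limma p of 0.0446 that became 0.209 without *Lats1/2PanKO* bud 3. Over the 8 buds *Cdh6* went with *Cdh1* (Pearson r 0.87) rather than with *Cdh11* (r -0.72), as a description of 8 libraries that share their genotype split. These were 0.75 and -0.28 without *Lats1/2PanKO* bud 3.

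**Figure D2:**
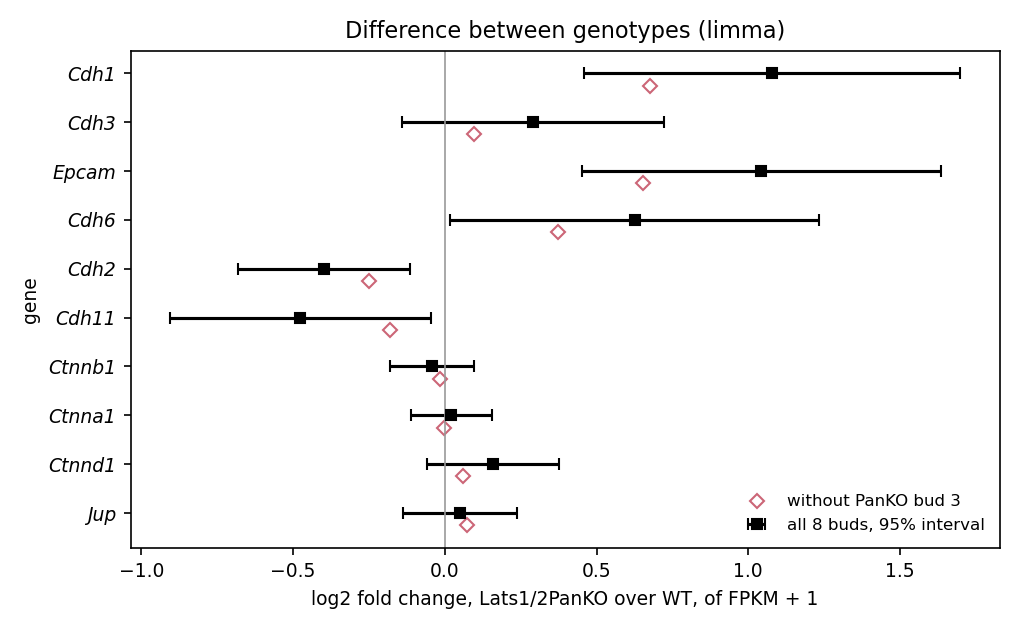
The log2 fold change of FPKM + 1, *Lats1/2PanKO* over WT, for the 10 genes from limma, as squares with 95% intervals over all 8 buds and as open diamonds without *Lats1/2PanKO* bud 3. Every diamond of the 6 adhesion receptors lies nearer 0 than its square, and the intervals of *Cdh3* and of all 4 catenins include 0.

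The catenins differed little between genotypes and between buds. *Ctnnb1* encodes β-catenin, which links cadherins to α-catenin and is also the transcriptional effector of canonical Wnt signalling, and lies on chromosome 9 from 120933400 to 120960507. It was 281, 272, 275, 276 and 266 FPKM in WT buds 1 to 5 and 259, 283 and 256 FPKM in *Lats1/2PanKO* buds 1 to 3, with a WT coefficient of variation of 2.02%. The groups overlapped, and the log2 fold change was -0.04 (95% interval -0.18 to 0.09, adjusted p 0.848 in limma), which bounds the fold on this scale between 0.883 and 1.07.

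*Ctnna1*, αE-catenin, the actin-binding link of the junction, lies on chromosome 18 from 35118912 to 35254775. It was 136, 130, 136, 144 and 145 FPKM in WT buds 1 to 5 and 135, 141 and 145 FPKM in *Lats1/2PanKO* buds 1 to 3. The groups overlapped, and its log2 fold change was 0.02 (95% interval -0.11 to 0.16, adjusted p 0.923 in limma), a fold between 0.925 and 1.11.

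*Jup* encodes plakoglobin, which serves adherens junctions and desmosomes, and lies on chromosome 11 from 100368856 to 100397790. It was 21.7, 20.3, 17.2, 19.4 and 20.9 FPKM in WT buds 1 to 5 and 20.2, 21.7 and 19.9 FPKM in *Lats1/2PanKO* buds 1 to 3. Again the groups overlapped, with a log2 fold change of 0.05 (95% interval -0.14 to 0.24, adjusted p 0.873 in limma) and a fold between 0.909 and 1.18.

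*Ctnnd1*, whose product steadies cadherins at the membrane, lies on chromosome 2 from 84600781 to 84650740. It was 45.6, 47.5, 41.9, 41.3 and 49.2 FPKM in WT buds 1 to 5 and 49.7, 44.2 and 58.1 FPKM in *Lats1/2PanKO* buds 1 to 3. *Lats1/2PanKO* bud 2 lay among the WT buds and the other two above them. Its log2 fold change was 0.16 (95% interval -0.06 to 0.38, adjusted p 0.584 in limma), or 0.06 without *Lats1/2PanKO* bud 3, and the fold lay between 0.961 and 1.30. A difference of the size seen for *Cdh1* or *Epcam* lies outside the 95% interval of each of the 4 catenins.

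The catenins were also set against the receptors. The summed FPKM of the 5 cadherins was 235, 224, 196, 195 and 222 in WT buds 1 to 5 and 215, 216 and 251 in *Lats1/2PanKO* buds 1 to 3, with means of 214 ± 17.9 and 227 ± 20.3. The groups overlapped, and bud 3 was the highest of all. *Ctnnb1* over this sum was 1.20 to 1.42 in WT and 1.21, 1.31 and 1.02 in *Lats1/2PanKO*, and *Ctnnb1* over *Ctnna1* was 1.83 to 2.09 in WT and 1.92, 2.01 and 1.77 in *Lats1/2PanKO*. Both ratios overlapped between genotypes. *Cdh1* over *Ctnnd1* did not, at 0.504 to 0.656 in WT and 0.931, 0.8004 and 1.63 in *Lats1/2PanKO*. β-catenin exceeded plakoglobin, its relative at the cadherin tail, 12.7 to 16.0 times in WT buds and 12.8, 13.1 and 12.9 times in *Lats1/2PanKO* buds.

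The make-up of the cadherins differed more than their sum. *Cdh1* was 11.6, 13.9, 11.1, 10.8 and 11.2% of the summed cadherin FPKM in WT buds 1 to 5 and 21.5, 16.4 and 37.9% in *Lats1/2PanKO* buds 1 to 3, without overlap. *Cdh11* was 35.8 to 39.5% in WT buds and 30.7, 35.4 and 15.1% in *Lats1/2PanKO* buds, also without overlap, though bud 2 was close to the lowest WT bud. *Cdh2* was 29.6 to 32.3% in WT and 24.3, 26.4 and 15.9% in *Lats1/2PanKO*, without overlap. *Cdh3* (9.85 to 17.4% against 13.1, 13.8 and 17.5%) and *Cdh6* (4.63 to 10.1% against 10.4, 7.97 and 13.6%) overlapped between genotypes. *Cdh2* and *Cdh11* together held 66.1 to 69.9% of the cadherin FPKM in WT buds and 55.0, 61.8 and 31.0% in *Lats1/2PanKO* buds 1 to 3, so the mesenchymal cadherins were still the larger share in buds 1 and 2 and the smaller one in bud 3.

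**Figure D3:**
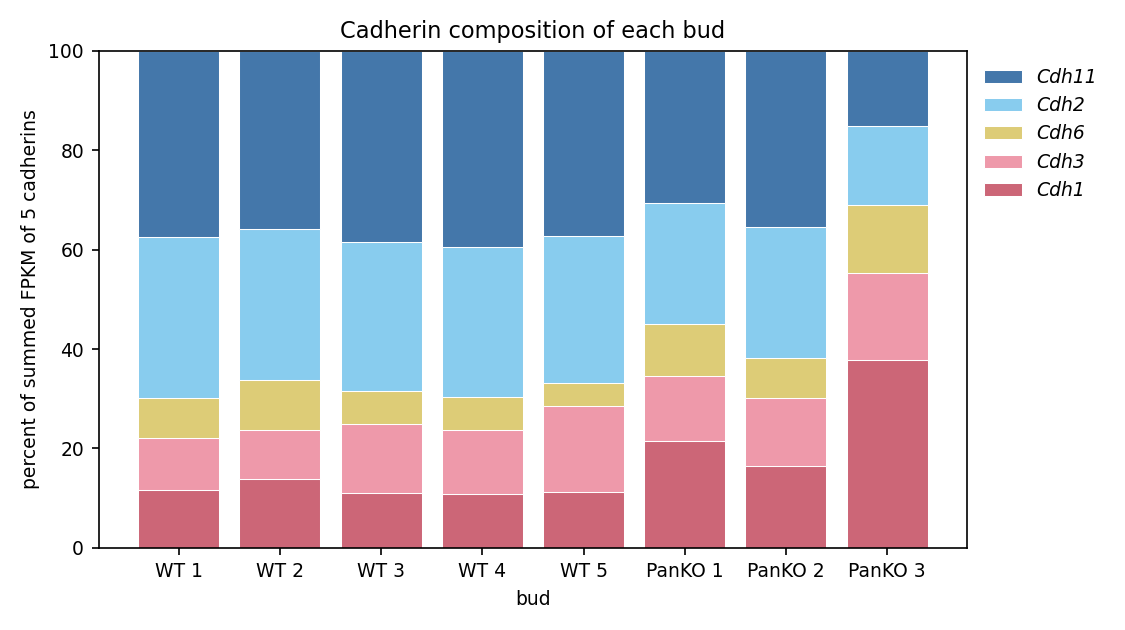
Percent of the summed FPKM of *Cdh1*, *Cdh2*, *Cdh3*, *Cdh6* and *Cdh11* that each gene held, with 1 stacked bar for each bud. The *Cdh1* segment is 10.8 to 13.9% in the WT buds and 16.4 to 37.9% in the *Lats1/2PanKO* buds, and *Cdh2* with *Cdh11* hold the smaller part only in PanKO bud 3.

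The epithelial genes were then set against the mesenchymal genes in each bud. The mean log2(FPKM + 1) of *Cdh1*, *Cdh3* and *Epcam* minus that of *Cdh2* and *Cdh11* was -1.42, -1.19, -1.28, -1.25 and -1.21 in WT buds 1 to 5 and -0.42, -0.75 and 1.07 in *Lats1/2PanKO* buds 1 to 3. The WT buds kept within a narrow band below 0, *Lats1/2PanKO* buds 1 and 2 lay above that band but below 0, and bud 3 alone was above 0. The group means were -1.27 ± 0.090 and -0.03 ± 0.97 (SD, n = 5 and n = 3), a difference of 1.24, and the difference was 0.69 without *Lats1/2PanKO* bud 3. No p is given for this score, whose members were chosen. The mean of the epithelial genes was 0.80 higher in *Lats1/2PanKO* buds, and that of the mesenchymal genes differed by -0.44. Single pairs showed the spread among the *Lats1/2PanKO* buds. *Cdh1* over *Cdh2* was 0.358 to 0.458 in WT buds and 0.886, 0.620 and 2.38 in *Lats1/2PanKO* buds, and *Cdh1* over *Cdh11* was 0.275 to 0.389 in WT and 0.702, 0.463 and 2.51 in *Lats1/2PanKO*. E-cadherin transcript thus exceeded that of either mesenchymal cadherin in bud 3 alone.

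**Figure D4:**
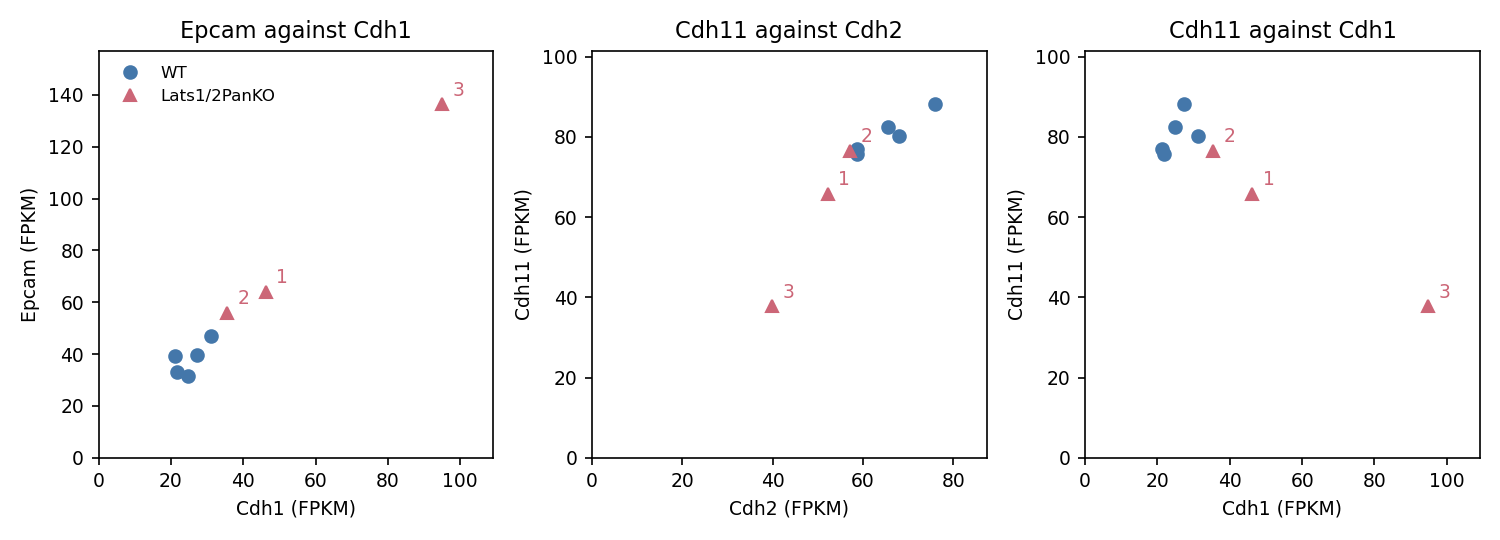
FPKM of *Epcam* against *Cdh1*, of *Cdh11* against *Cdh2* and of *Cdh11* against *Cdh1*, with WT buds as circles and *Lats1/2PanKO* buds as triangles with their number. Like genes lie near a line through the origin, apart from bud 3 for *Cdh11* and *Cdh2*, and *Lats1/2PanKO* buds run from bud 2 beside the WT buds to bud 3 at 94.9 FPKM of *Cdh1* and 37.9 FPKM of *Cdh11*.

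Across the 9276 tested genes that averaged 5 FPKM or more, those most like *Cdh1* over the 8 buds by Pearson r of log2(FPKM + 1) were *Asap3* (r 0.995), *Kif12* (0.994), *Habp2* (0.994), *Tmem27* (0.993) and *Anxa5* (0.993). Without *Lats1/2PanKO* bud 3 their r with *Cdh1* over 7 buds was 0.974 to 0.987. *Epcam* came at rank 41 with r 0.976, or 0.907 without bud 3, while *Cdh3* came at rank 1044 with r 0.602, which was -0.01 without it. Those most like *Cdh11* were *Nr2f2* (r 0.994), *Fgfr1* (0.992), *Itga8* (0.988), *Mrc2* (0.986) and *Adgra3* (0.985), with 0.852 to 0.940 in the 7 buds. *Cdh2* came at rank 74 for *Cdh11* with r 0.934, and 0.932 without bud 3. These values describe 8 libraries that share depth, genotype split and tissue make-up.

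The desmosome, the other cadherin-based junction of epithelia, uses plakoglobin with its own cadherins. Of 10 listed desmosomal genes 6 were tested. All 6 were higher in *Lats1/2PanKO* buds at an unadjusted p under 0.05 in limma, a mark that 6.29% of all tested genes passed in this direction. Only 1 of them, *Ppl*, did not overlap (4.46% of all genes), and the list had a median log2 fold change of 0.81. No gene of this or of the other 5 lists that follow passed the adjusted threshold. *Ppl* (periplakin, which ties desmosomes to keratins) had means of 3.00 ± 0.945 FPKM in WT and 10.2 ± 7.03 FPKM in *Lats1/2PanKO*, with a log2 fold change of 1.33. *Dsc2* (desmocollin-2) had a log2 fold change of 1.01 and *Perp*, a membrane protein of desmosomes, of 0.68. The most abundant were *Dsg2* (desmoglein-2, 18.7 and 30.5 FPKM) and *Dsp* (desmoplakin, 13.2 and 26.5 FPKM). Without *Lats1/2PanKO* bud 3, 1 of the 6 was past an unadjusted p of 0.05, where 3.69% of all genes were higher and 2.21% lower, and the median was 0.44.

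Of 11 other catenins and armadillo proteins 10 were tested, 7 were higher and 3 lower, with 4 higher at an unadjusted p under 0.05 (6.29% of all genes), 3 of them without overlap (4.46% of all genes), and a median log2 fold change of 0.18. *Pkp4*, a plakophilin relative of the *Ctnnd1* family, had means of 20.8 ± 1.37 and 28.9 ± 7.01 FPKM (log2 fold change 0.43). *Arvcf*, another of that family, had 13.7 ± 0.570 and 18.8 ± 4.60 FPKM (0.41), and *Pkp3*, a desmosomal plakophilin, had 0.479 ± 0.210 and 1.21 ± 0.508 FPKM (0.57). *Ctnnbl1*, named after β-catenin but a splicing factor, was the most abundant, at 33.97 and 31.4 FPKM. Without *Lats1/2PanKO* bud 3, 2 of the 10 were higher past that p, against 3.69% of all genes, and the median was 0.02.

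Among 24 linkers and turnover factors of the adherens junction 17 were higher and 7 lower, with a median of 0.06. At an unadjusted p under 0.05, 5 were higher and 1 lower, against 6.29% and 4.99% of all genes, so that the lower count is near the background. These counts were 3 and 0 without *Lats1/2PanKO* bud 3, against 3.69% and 2.21% of all genes. *Ajuba*, a LIM protein that binds α-catenin and also LATS kinases, had means of 12.3 ± 1.82 and 19.5 ± 4.30 FPKM (log2 fold change 0.62, adjusted p 0.197 in limma). *Actn4*, an α-actinin, had 93.7 ± 7.69 and 121 ± 21.2 FPKM (0.36), and *Camsap3*, which anchors microtubules at the junction, 4.37 ± 0.417 and 8.09 ± 3.78 FPKM (0.69). *Actn1*, the most abundant, was alike, at 104 and 106 FPKM.

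The partners and proteases of EPCAM gave the largest list median, 0.96 over 8 tested of 9 listed, with 5 higher at an unadjusted p under 0.05 (6.29% of all genes) and without overlap (4.46%). Both counts were again 5 without *Lats1/2PanKO* bud 3, against 3.69% and 5.53% of all genes, and the median was 0.58. Among these 5 was *St14*, encoding matriptase, which cleaves EPCAM, at 3.15 ± 0.778 and 9.89 ± 5.00 FPKM (log2 fold change 1.32, adjusted p 0.140 in limma). The matriptase inhibitors *Spint1* (9.80 ± 0.897 and 23.3 ± 12.6 FPKM, log2 fold change 1.06) and *Spint2* (28.7 ± 2.74 and 57.9 ± 26.0 FPKM, 0.91) were higher as well. *Cldn1*, a claudin of low level, had lower values without overlap, at 0.794 and 0.447 FPKM (unadjusted p 0.0929), and is named here after its values were seen. *Spint2*, *Prss8* and *Cldn7* of this list are also among the epithelial markers, which overlap in the same way.

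The list of E-cadherin repressors and epithelial regulators differed in both directions, with 14 tested of 17 listed, 4 higher and 4 lower at an unadjusted p under 0.05 (6.29% and 4.99% of all genes), all 8 without overlap (4.46% and 3.06%), and a median of -0.14. Past that p 4 were higher and 2 lower without *Lats1/2PanKO* bud 3 (3.69% and 2.21% of all genes), and the median was -0.01. *Grhl2*, a grainyhead factor that activates *Cdh1*, had means of 2.11 ± 0.592 and 7.10 ± 3.20 FPKM (log2 fold change 1.33, adjusted p 0.127 in limma), and 1.03 without *Lats1/2PanKO* bud 3. *Esrp2*, an epithelial splicing regulator, had a log2 fold change of 1.09. *Twist2*, a mesenchymal basic helix-loop-helix factor, was lower, at 10.99 ± 1.33 and 6.72 ± 2.12 FPKM (-0.67), and *Tcf3*, the most abundant of the list, was at 109 and 106 FPKM. *Grhl3*, another grainyhead factor and of low level, was lower without overlap, unlike *Grhl2*, and is named here after its values were seen. Its means were 0.994 and 0.391 FPKM (log2 fold change -0.51, unadjusted p 0.0250 in limma, and -0.59 without *Lats1/2PanKO* bud 3). The Zeb and Snail repressors and *Twist1* were looked at after their values had been seen. *Zeb1* was lower, at 20.9 ± 4.08 and 14.2 ± 3.21 FPKM (log2 fold change -0.53, unadjusted p 0.0130), while *Zeb2* (26.6 and 23.7 FPKM), *Snai2* (26.1 and 21.0 FPKM), *Snai1* (4.75 and 4.08 FPKM) and *Twist1* (3.16 and 2.58 FPKM) overlapped between genotypes and did not pass that threshold. *Esrp1* of this list is also an epithelial marker here, and *Zeb1*, *Zeb2* and *Twist1* are also mesenchymal markers.

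Of 17 other cadherins 10 were tested, 4 higher and 6 lower, none at an unadjusted p under 0.05 in limma and none without overlap, with a median of -0.19, which was 0.01 without *Lats1/2PanKO* bud 3. The most abundant were *Cdh5*, the cadherin of endothelium (37.7 ± 7.42 and 28.3 ± 7.26 FPKM, log2 fold change -0.41), and *Cdh24* (5.81 and 5.00 FPKM). *Cdh5* is also an endothelial marker, and the log2 fold changes of those 15 markers were all below 0. Of the 15, 4 were at an unadjusted p under 0.05 in limma (4.99% of all genes) and 2 without overlap (3.06%). None was past the adjusted threshold, and 2 were lower past that p without *Lats1/2PanKO* bud 3 (2.21% of all genes). *Cdh16*, the cadherin of kidney epithelium, was listed at 0 in every bud.

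**Figure D5:**
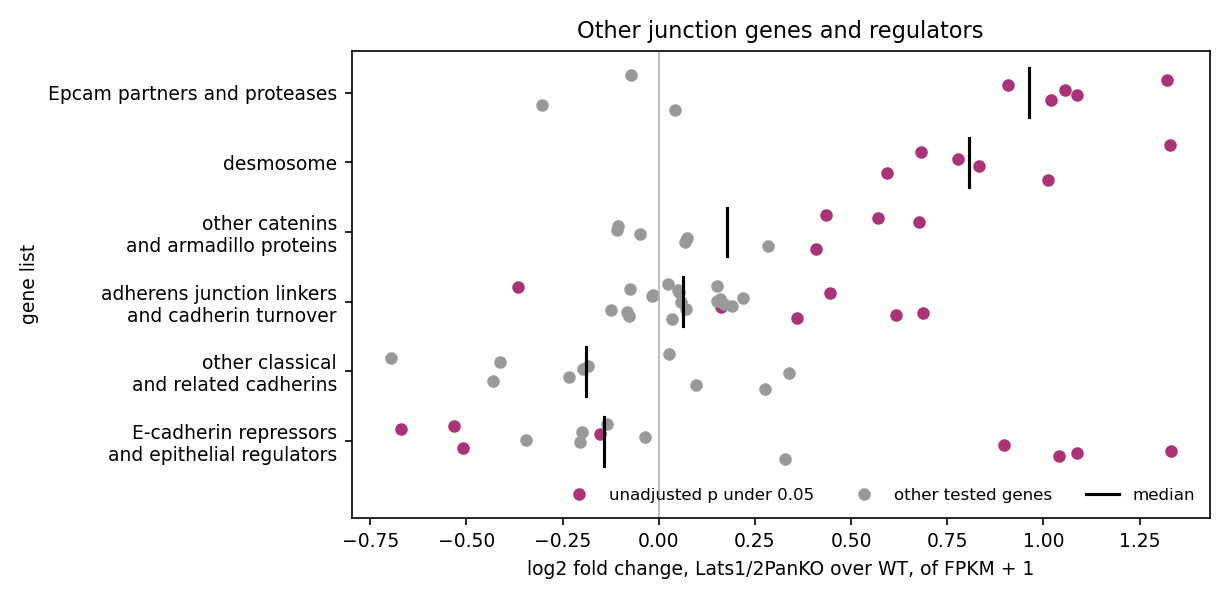
The log2 fold change of FPKM + 1, *Lats1/2PanKO* over WT, of each tested gene in 6 lists of junction genes and regulators, with genes at an unadjusted p under 0.05 in limma in colour and list medians as bars. The desmosomal genes all lie above 0, with a median of 0.81, and the regulators split to both sides of 0.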

How the data were processed

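Total RNA of 8 individual E11.0 buds was sequenced as stranded libraries after ribosomal RNA depletion. The authors trimmed reads with cutadapt 1.12, aligned them with TopHat 2.1.0 to GRCm38 and deposited FPKM per gene from Cuffdiff 2.2.1, per the methods with quantile normalization, although the columns differ in distribution. FPKM values were used as deposited, with genotype and replicate number from the sample labels, and the buds are not mapped to litters, so p-values measure the spread between these buds. Depth is known only through the worth of a fragment, read from 393 single-exon genes.

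The 13777 genes averaging 0.5 FPKM or more were fitted in limma 3.58.1 (R 4.3.3) as log2(FPKM + 1), with a trend of variance on level and Benjamini-Hochberg adjustment over all of them at 0.05. The added 1 FPKM makes fold changes understate those of low genes. Single genes were also tested by exact two-sided permutation over 56 splits. The scripts were tested on simulated data. The 10 genes, their classes, 6 junction lists and 10 marker lists were chosen with earlier results of these data known. Named from each junction list were at most the 3 genes with the smallest p and the 2 most abundant, apart from those said to be named later, and the 5 genes most like *Cdh1* and *Cdh11*. Percentages of marker sums, with and without *Vim* or keratins, were added after the data had been seen. Alternatives tried were quantile or median-ratio scaling, a pseudocount of 0.1, a filter at 2 FPKM or none, array weights, no trend, the replicate number as a block, other members of the classes, and each bud left out in turn. Coordinates were deposited from 0 and are given from 1. Promoter windows came from RefSeq (GRCm38.p6).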

Additional observations from a re-analysis of the deposited data

Results flagged for a closer look

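Among the WT buds, WT bud 2 stood apart from the other 4 in the share of *Cdh1* among the 5 cadherins, at 13.9% against 10.8 to 11.6%. The gap was 0.762 of the whole WT range, above the critical value of 0.71 for 5 samples. Values of 10 genes and 10 ratios or shares were looked at in this way, and about 1 group in 20 is flagged when nothing differs. The value of WT bud 2 stayed below the lowest *Lats1/2PanKO* bud, at 16.4%.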

How the results depend on the processing

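No member passed an adjusted p of 0.05 under any of the 16 alternatives, and the smallest adjusted p was 0.0661, for *Cdh1* with array weights. Of the values compared, 237 kept their direction and side of the threshold or stayed near their value, 2 changed sign and 25 moved. The sign changed for *Ctnna1* without *Lats1/2PanKO* replicate 3 (log2 fold change -0.0026, up to 0.0488 without replicate 1) and for *Ctnnb1* with quantile normalization (0.0056), both within their error of 0, and the cause was not tested. The count of genes past the adjusted threshold, 2, was 18 with a pseudocount of 0.1, 174 with array weights, 1 without the trend and 0 to 19 with each bud left out. The count at an unadjusted p under 0.05, 1553, was 2578 with array weights and 812 to 2035 with each bud left out. Members lower at an unadjusted p under 0.05, 2 in all, were 1 with no filter and 0 to 2 with each bud left out, 0 being the fit without *Lats1/2PanKO* replicate 3. The score of epithelial over mesenchymal members, 1.24, ran from 0.69 to 1.60 with each bud left out, and was 0.89 with *Cdh6* among the mesenchymal genes. Array weights gave *Lats1/2PanKO* bud 3 a weight of 0.487 and bud 1 a weight of 3.99. The labels do not say whether replicate numbers are pairs. Deviations of same-numbered buds from their group means correlated at 0.085, -0.097 and 0.069, and not every bud correlated best with its own number. Values this small, from so few buds, cannot tell whether the buds were paired. With the replicate number as a block, 1 gene passed the adjusted threshold, 1 member was lower at an unadjusted p under 0.05, and *Cdh1* had a log2 fold change of 1.00 (adjusted p 0.541 in limma) and *Cdh3* of 0.42. With 3 *Lats1/2PanKO* buds, differences rest much on replicate 3.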
